A study of Homo sapiens with 12 samples.

Results

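The genes described here encode the factors that start protein synthesis on an mRNA (eukaryotic initiation factors, EIF) and that lengthen the peptide chain (eukaryotic elongation factors, EEF). They were chosen by symbol: every gene whose name begins with EIF and a digit, or with EEF1 or EEF2, without the EIF2AK kinases, the kinase gene EEF2K, pseudogenes and read-through genes with a hyphen in the name. This gave 62 of the 23228 genes counted. Of these, 57 had enough reads to be tested, among 14874 tested genes in all. The rule also took in EIF2C1, EIF2C2, EIF2C3 and EIF2C4, older symbols of the 4 Argonaute genes, which act in silencing by small RNAs and not as translation factors. They are kept as members and given apart, and 58 members remain without them.

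The polyadenylated RNA of SUM149PT cells, a long established line of inflammatory breast cancer, was sequenced. There were 4 groups of 3 libraries, lettered A, B and C. The combination group received 5 µM tazemetostat, which inhibits the histone methyltransferase EZH2, from day -5, and 5 µM ipatasertib, which inhibits AKT kinases, on day 0. The ipatasertib group received 5 µM ipatasertib on day 0 alone, and the tazemetostat group 5 µM tazemetostat from day -5 alone. The DMSO group received the solvent. All groups were passaged on day -3 and day -1, were kept in 2% serum from day 0 and were collected 24 h later. Exposure to tazemetostat was therefore longer than exposure to ipatasertib. Whether the 3 libraries of a group are separate cultures is not stated in the labels. The p-values then cover only the spread between these libraries, and that spread may be technical.

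As background, initiation begins when eIF2, loaded with GTP and the initiator tRNA, joins the small ribosomal subunit together with eIF1, eIF1A, eIF3 and eIF5. The cap complex eIF4F, made of the cap-binding protein eIF4E, the scaffold eIF4G and the RNA helicase eIF4A, brings this subunit to the mRNA. The kinase complex mTORC1, which lies downstream of AKT, phosphorylates the eIF4E-binding proteins, and in their unphosphorylated form these keep eIF4E from eIF4G. Many mRNAs of ribosomal proteins and elongation factors begin with a C and an unbroken run of pyrimidines, the terminal oligopyrimidine (TOP) motif, and the translation of such mRNAs is known to depend on mTORC1. RNA sequencing measures the amount of mRNA and not its translation.

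Several members differed in the first bases of their transcripts. The windows below hold 15 bases before and 15 bases from the transcription start, 5′ to 3′ on the strand of the gene, as the RefSeq promoter table gives them on GRCh38.p14. Capitals mark a C at the first transcribed base with the pyrimidines that follow it, where at least 4 follow. The first 6 genes have such a start and rose in the combination. The next 2 have such a start and did not pass the test there. The last 4 have another start and fell. The windows are a selection and do not show how well start and direction match. EEF1G and EIF4E3, among others, have another start in that table and rose, and are not shown. EIF3K, EIF3M and EEF1B2 have such a start, did not pass and are not shown either.
EEF1A1: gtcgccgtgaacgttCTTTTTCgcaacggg
EEF2: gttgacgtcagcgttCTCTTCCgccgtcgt
EIF4A2: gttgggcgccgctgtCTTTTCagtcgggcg
EIF4B: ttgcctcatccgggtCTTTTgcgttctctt
EIF3F: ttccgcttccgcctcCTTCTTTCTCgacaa
EIF2D: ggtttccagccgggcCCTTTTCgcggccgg
EIF3D: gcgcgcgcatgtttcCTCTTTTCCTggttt
EIF2S3: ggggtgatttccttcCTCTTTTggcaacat
EIF3B: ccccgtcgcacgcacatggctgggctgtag
EIF2S1: gcgaggaggttccgcatgcgcggtggagtg
EIF4H: ccttcctcgctcaccctggttcctctcgga
EIF4E: ccttctggagcggttgtgcgatcagatcga

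On the plus strand these windows lie at chr3:186783562-186783591 for EIF4A2, chr12:53006441-53006470 for EIF4B, chr11:7987322-7987351 for EIF3F, chrX:24054941-24054970 for EIF2S3, chr7:2354812-2354841 for EIF3B, chr14:67360313-67360342 for EIF2S1 and chr7:74174341-74174370 for EIF4H. On the minus strand they lie at chr6:73521018-73521047 for EEF1A1, chr19:3985449-3985478 for EEF2, chr1:206612451-206612480 for EIF2D, chr22:36529152-36529181 for EIF3D and chr4:98929119-98929148 for EIF4E. The counts themselves were made on another build, hg19, so no coordinate is carried from one to the other.

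Gene counts summed to between 22355242 and 49970540 per library, and a gene with 0 counts could have had up to 3, which is 0.0602 to 0.130 CPM (a gene's counts relative to the size of its library). Such limits take in counting error alone. Among replicates, tazemetostat A and combination B differed most from the rest of their group, with a chi-square per degree of freedom of 17.3 to 19.1 and 14.4 to 24.9. Reads without a unique position made up 11.8% ± 0.498 of reads in the combination libraries, 11.8% ± 0.614 with ipatasertib, 9.89% ± 0.437 with tazemetostat and 10.2% ± 0.411 with DMSO (SD, n = 3 each). Reads that fell on no counted feature made up 23.8% ± 0.923 in the combination libraries and 24.6% ± 0.961 with ipatasertib. They made up 18.4% ± 0.501 with tazemetostat and 19.7% ± 0.764 with DMSO. Which features were counted is not given, so such reads may still lie inside genes. Both shares were higher in every library with ipatasertib than in any without it, and their part in the results below was not tested. The summed level of 4 epithelial genes was 1461 to 1527 CPM in the combination libraries, 1432 to 1555 in the ipatasertib libraries, 1746 to 1897 in those of tazemetostat and 2017 to 2099.9 in those of DMSO. That of 3 endothelial genes was 4.76 to 6.62, 3.09 to 3.86 and 1.42 to 1.91 CPM in the combination, ipatasertib and tazemetostat libraries and 0.902 to 1.44 in those of DMSO. That of 3 leukocyte genes was 8.91 to 9.26, 12.7 to 14.2 and 8.19 to 8.97 CPM in the same 3 treated groups and 13.4 to 15.4 with DMSO. CD3E and VWF were at or near 0 throughout. The sum of 4 basal genes was 172 to 192 CPM in the combination libraries, 303 to 329 in the ipatasertib libraries, 957 to 1079 in those of tazemetostat and 1231 to 1291 in those of DMSO. The sum of 5 fibroblast genes was 79.5 to 85.3 CPM in the combination libraries, 330.4 to 366 in the ipatasertib libraries, 109 to 116 in those of tazemetostat and 517 to 547 in those of DMSO, most of it COL1A1 and DCN, with COL1A2 and PDGFRB under 1 CPM. Some genes moved against these sums. In each treated group 1 basal gene rose against DMSO and 3 fell. TP63 averaged 27.2, 26.1 and 27.9 CPM in the combination, ipatasertib and tazemetostat libraries and 15.9 with DMSO. With ipatasertib 3 fibroblast genes rose and 2 fell. COL1A1 averaged 204 CPM with ipatasertib and 424 with DMSO, while DCN averaged 131 and 98.8. Among leukocyte genes PTPRC averaged 1.74 CPM in the combination libraries and 0.319 with DMSO, and CD14 7.27 and 14.3. In bulk RNA a change in every cell and a change in the mix of cells cannot be told apart.

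More translation factor genes passed the test with ipatasertib than with tazemetostat, and they moved in both directions. A gene is said to have risen or fallen where its adjusted p was under 0.05 in edgeR's quasi-likelihood test with Benjamini-Hochberg adjustment over all genes tested. In the combination against DMSO, 43 of 57 members passed, 17 higher and 26 lower, while 71% of all tested genes passed there. With ipatasertib alone, 44 of 57 passed, 14 higher and 30 lower, against 54.1% of all tested genes. Tazemetostat alone changed 20 members, 8 higher and 12 lower, where 46% of all tested genes passed. Its higher calls were 5 without DMSO B or tazemetostat B and 4 without tazemetostat C, and 14 without both tazemetostat A and combination B. Among all tested genes 36.5% rose and 34.5% fell in the combination, 25.4% rose and 28.7% fell with ipatasertib, and 25.1% rose and 20.9% fell with tazemetostat. The share of members was thus close to that of all genes in the combination, above it with ipatasertib and below it with tazemetostat.

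Most of these changes were small. Changes of at least 0.5 on the log2 scale were found for 20 members in the combination, 17 with ipatasertib and 3 with tazemetostat, where 43%, 23.6% and 17.3% of all tested genes had one. The median log2 change over the 57 members was -0.11 in the combination, -0.15 with ipatasertib and 0.05 with tazemetostat, while the medians over all tested genes were 0.02, -0.01 and 0.02. The members' median turned to 0.02 in the combination under scaling by total counts, and with tazemetostat it was -0.007 without DMSO B and -0.003 without tazemetostat B. Without the Argonaute genes 39, 41 and 17 of 53 members passed. The balance of directions depended on the scaling: with libraries scaled by their total gene counts alone, 23 members rose and 23 fell in the combination, 18 rose and 23 fell with ipatasertib, and 19 rose and 7 fell with tazemetostat. That scaling moved the median of all genes up by 0.14 in the combination, 0.12 with ipatasertib and 0.07 with tazemetostat. The shares of all tested genes that rose or fell under it are not given. Summed over the 62 genes, the factors held 1.94% ± 0.0250 of gene counts in the combination libraries, 1.79% ± 0.0314 with ipatasertib, 1.68% ± 0.0234 with tazemetostat and 1.66% ± 0.0170 with DMSO (SD, n = 3 each). The elongation genes alone held 0.850% ± 0.0169 in the combination libraries, 0.732% ± 0.0210 with ipatasertib, 0.512% ± 0.0238 with tazemetostat and 0.495% ± 0.00823 with DMSO. All other members together held 1.09% ± 0.0355, 1.06% ± 0.0112 and 1.17% ± 0.000782 in the combination, ipatasertib and tazemetostat libraries and 1.16% ± 0.0114 with DMSO, so the higher sums with ipatasertib came from the elongation genes.

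**Figure D1:**
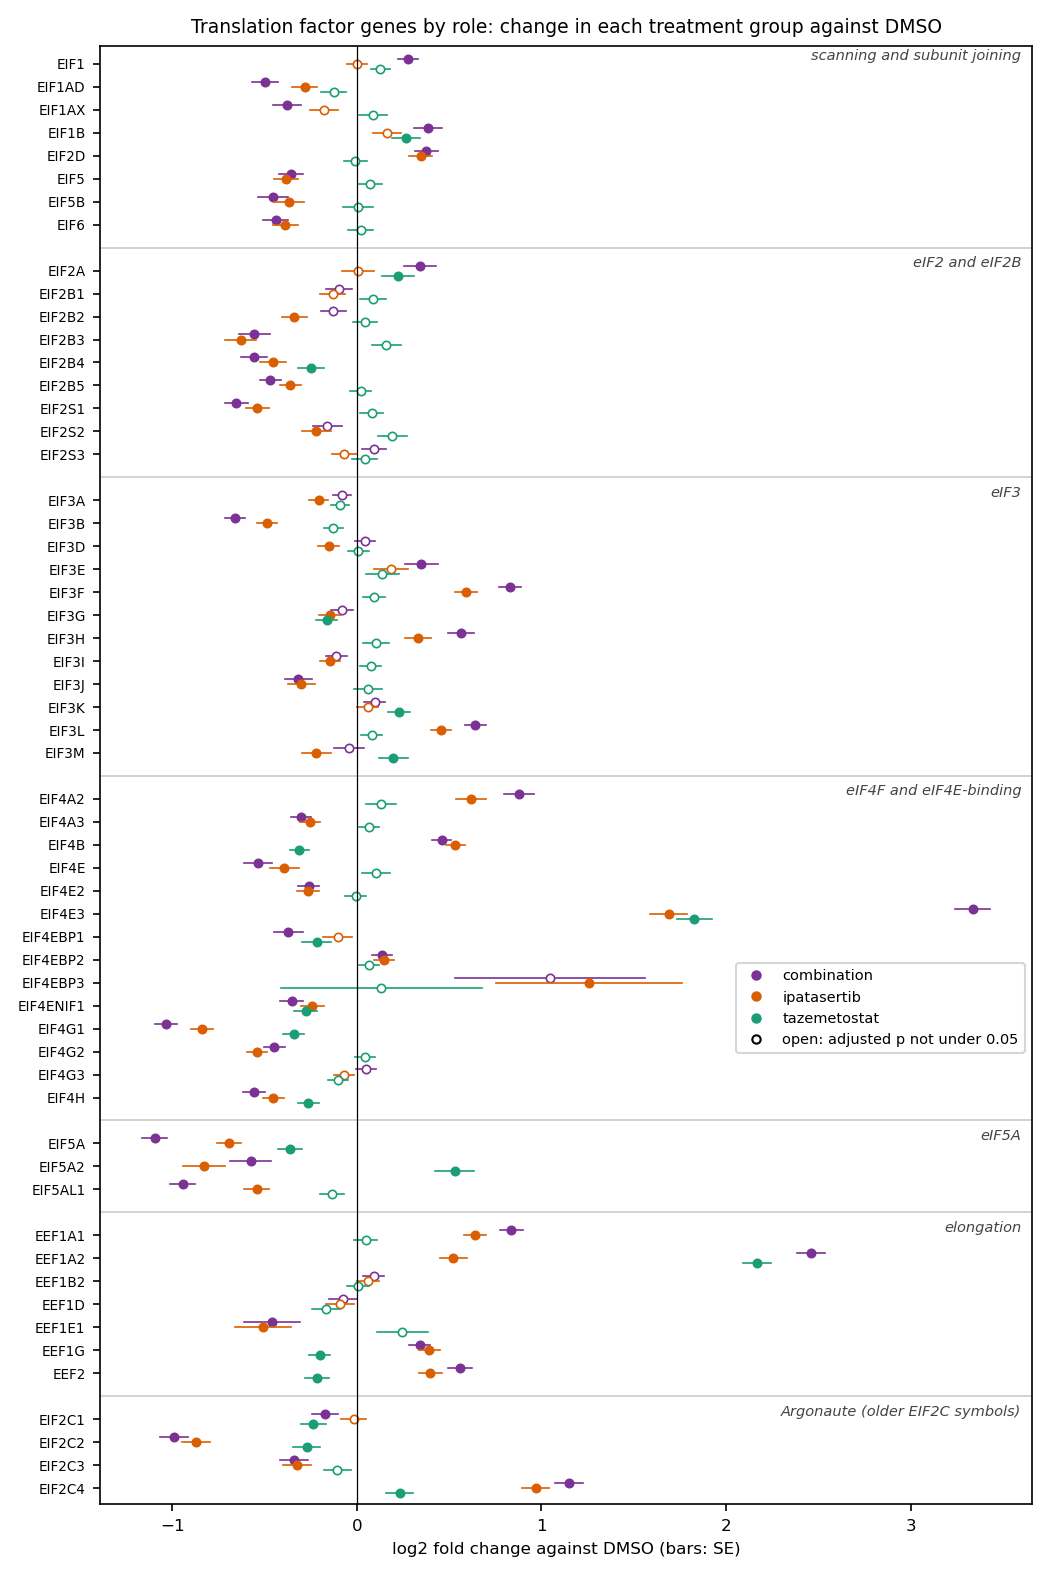
Log2 fold change of each of the 57 tested members in the combination, ipatasertib and tazemetostat groups against DMSO (x axis), with members in rows grouped by role. Points are estimates, bars are 1 SE and open points did not reach an adjusted p under 0.05; EIF4E3 and EEF1A2 lie farthest to the right, and the 3 eIF5A genes all lie left of 0 with ipatasertib and in the combination.

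Most elongation factors rose with ipatasertib, alone and in the combination. Of 7 tested members, 4 rose and 1 fell in each of these groups, and with tazemetostat 1 rose and 2 fell. Among all tested genes 54.1% passed with ipatasertib, 71% in the combination and 46% with tazemetostat. In the values that follow, each trio gives libraries A, B and C in CPM. EEF1A1, which encodes the main form of the protein that delivers aminoacyl-tRNA to the ribosome, stood at 2789.7, 3372 and 3024 in the combination libraries, 2789, 2629 and 2598 with ipatasertib, 1766, 1794 and 1751 with tazemetostat and 1709.7, 1663 and 1768 with DMSO. Every library with ipatasertib lay above every library without it, and the tazemetostat and DMSO libraries overlapped. The log2 change was 0.84 (SE 0.06) in the combination and 0.64 (SE 0.06) with ipatasertib, with adjusted p values of 2.70e-10 and 4.33e-08, and 0.05 (SE 0.06) with tazemetostat, where adjusted p was 0.55 by the same edgeR test. EEF1A1 has many processed pseudogenes, so its count depends on how reads with several positions were treated.

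EEF2 encodes the translocase that moves the ribosome along the mRNA by 1 codon at a time. It stood at 3346, 2837 and 3239 CPM in the combination libraries, 2858, 2881 and 2694 with ipatasertib, 1978, 1784 and 1745 with tazemetostat and 2199.9, 2119 and 2079.8 with DMSO. The tazemetostat libraries were the lowest and none reached the DMSO libraries, while the combination and ipatasertib libraries overlapped and lay above both. EEF2 rose by 0.56 (SE 0.06) in the combination and by 0.40 (SE 0.06) with ipatasertib, and fell with tazemetostat, at -0.22 (SE 0.06) (edgeR adjusted p = 1.79e-07, 2.79e-05 and 0.00923). The tazemetostat call was lost with libraries scaled by total counts, at -0.15 and adjusted p = 0.0694 in edgeR. EEF1G, a subunit of the exchange factor that recharges eEF1A with GTP, had the same directions, at 0.34, 0.39 and -0.20. The other subunits of that factor, EEF1B2 and EEF1D, did not pass against DMSO in any group, with log2 changes between -0.17 and 0.09.

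EEF1A2 encodes the second form of eEF1A, which in adult mammals is known mainly from muscle and neurons. It stood at 491, 418 and 487 CPM in the combination libraries, 126, 123 and 115 with ipatasertib, 423, 357 and 358 with tazemetostat and 84.1, 84.1 and 85.3 with DMSO. Every treated library lay above every DMSO library, and both groups with tazemetostat lay above both without it. EEF1A2 rose by 2.46 (SE 0.08) in the combination, 0.52 (SE 0.07) with ipatasertib and 2.17 (SE 0.08) with tazemetostat, which are 5.51-fold, 1.44-fold and 4.49-fold (edgeR adjusted p = 8.31e-16, 6.65e-06 and 3.60e-14). Of the elongation factors, EEF1A2 alone rose with tazemetostat, while EEF2 and EEF1G fell. EEF1E1, which despite its symbol encodes a scaffold protein of the aminoacyl-tRNA synthetase complex, stood at 4.15, 2.94 and 3.92 CPM in the combination libraries, 4.21, 2.66 and 3.65 with ipatasertib, 5.57, 6.35 and 6.12 with tazemetostat and 4.71, 5.44 and 5.10 with DMSO. It fell by 0.46 in the combination and by 0.51 with ipatasertib on the log2 scale (SE 0.15 each), on 79 to 144, 70 to 168 and 156 to 201 counts per combination, ipatasertib and DMSO library. The edgeR call in the combination was lost without combination B, at -0.31 and adjusted p = 0.0628, and the call with ipatasertib without ipatasertib B, at -0.35 and adjusted p = 0.0629.

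**Figure D2:**
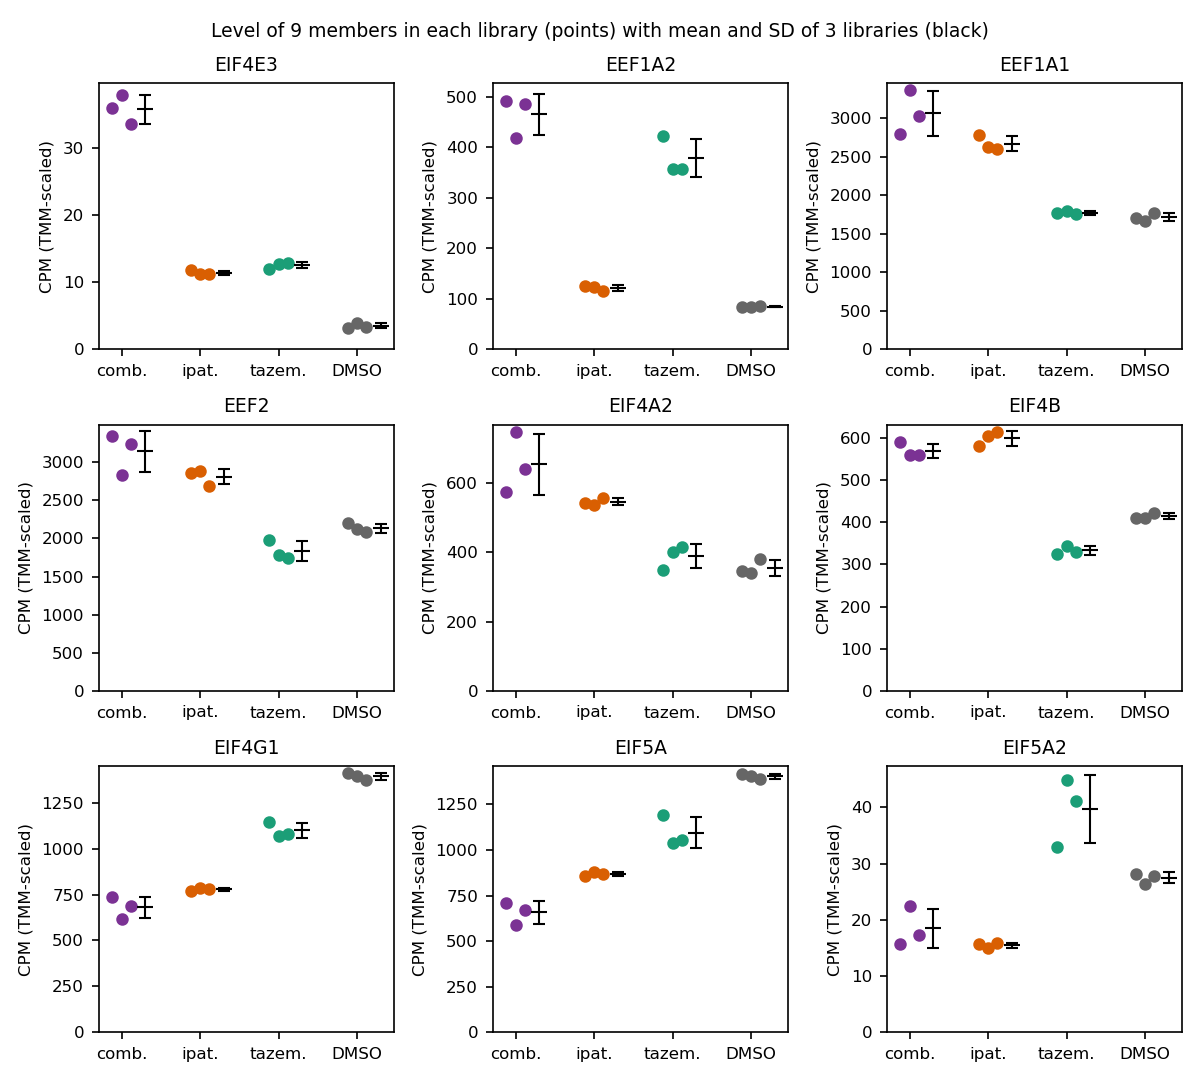
Level of 9 members in each of the 12 libraries (points, TMM-scaled CPM, linear axes from 0), with the mean and SD of 3 libraries in black. Groups run from combination at the left to DMSO at the right; EIF4E3 is highest in the combination, EEF1A2 follows tazemetostat, EEF1A1, EEF2, EIF4A2 and EIF4B follow ipatasertib, and EIF4G1 and EIF5A are highest in DMSO.

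The cap complex and its binding proteins moved in both directions. Of 14 tested members, 4 rose and 8 fell in the combination, 5 rose and 7 fell with ipatasertib, and 1 rose and 5 fell with tazemetostat. Among all tested genes 71% passed in the combination, 54.1% with ipatasertib and 46% with tazemetostat. EIF4E3, a member of the eIF4E family of cap-binding proteins, had the largest change of all 57 members in the combination and with ipatasertib, while EEF1A2 had it with tazemetostat. It stood at 35.99, 37.9 and 33.6 CPM in the combination libraries, 11.8, 11.2 and 11.2 with ipatasertib, 12.04, 12.8 and 12.9 with tazemetostat and 3.26, 4.0 and 3.40 with DMSO. Each inhibitor alone put every library above DMSO, and the combination libraries lay above all the others. EIF4E3 rose by 3.34 (SE 0.09) in the combination, 1.69 (SE 0.10) with ipatasertib and 1.83 (SE 0.10) with tazemetostat, which are 10.1-fold, 3.22-fold and 3.55-fold (edgeR adjusted p = 1.60e-16, 5.24e-11 and 1.10e-11).

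EIF4E, the main cap-binding protein, went the other way. It stood at 27.7, 35.05 and 30.7 CPM in the combination libraries, 34.6, 34.98 and 33.6 with ipatasertib, 44.9, 51.1 and 49.6 with tazemetostat and 44.3, 43.97 and 47.3 with DMSO. All libraries with ipatasertib were below all libraries without it. EIF4E fell by 0.54 in the combination and by 0.39 with ipatasertib on the log2 scale (SE 0.08 each, edgeR adjusted p = 4.60e-06 and 0.000273), and with tazemetostat its change was 0.10 (SE 0.08), adjusted p = 0.278. EIF4E2, a cap-binding protein known for repressing translation, fell by 0.26 in the combination and by 0.26 with ipatasertib on the log2 scale.

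Among the scaffolds, EIF4G1 fell in every treated group. It stood at 736, 619 and 687 CPM in the combination libraries, 769, 785 and 781 with ipatasertib, 1144, 1069.7 and 1082 with tazemetostat and 1409, 1394 and 1375 with DMSO. The 4 groups did not overlap and lay in that order from low to high. The log2 change was -1.03 (SE 0.06) in the combination, -0.84 (SE 0.06) with ipatasertib and -0.34 (SE 0.06) with tazemetostat (edgeR adjusted p = 6.83e-12, 6.00e-10 and 9.21e-05). EIF4G2, a relative without the eIF4E-binding part that serves cap-independent initiation, stood at 1080.3, 1225 and 1099 CPM in the combination libraries, 1069, 1083 and 1033 with ipatasertib, 1553, 1649 and 1586 with tazemetostat and 1529, 1523 and 1587 with DMSO. Its libraries separated by ipatasertib alone, with log2 changes of -0.45 (SE 0.06), -0.54 (SE 0.06) and 0.05 (SE 0.05) in the combination, ipatasertib and tazemetostat groups. EIF4G3 did not pass against DMSO in any group, with log2 changes between -0.10 and 0.05.

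The helicase genes differed among themselves. EIF4A2 stood at 573, 748 and 640.4 CPM in the combination libraries, 543, 537 and 558 with ipatasertib, 349, 401 and 416 with tazemetostat and 345, 339 and 382 with DMSO. It rose by 0.88 (SE 0.08) in the combination and 0.62 (SE 0.08) with ipatasertib (edgeR adjusted p = 9.11e-09 and 2.72e-06), and the tazemetostat and DMSO libraries overlapped. EIF4A3, a relative that belongs to the exon junction complex on spliced mRNA, fell by 0.30 in the combination and by 0.25 with ipatasertib on the log2 scale. EIF4A1, the helicase of eIF4F in most cells, is listed at 0 in all 12 libraries. A read-through gene that joins SENP3 and EIF4A1 had 0 to 9 counts per library. The level of EIF4A1 cannot be read from these counts, and the reason was not tested.

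The 2 cofactors of the helicase also parted. EIF4B, which stimulates eIF4A and is a target of kinases downstream of AKT and mTORC1, stood at 589.6, 559.6 and 559 CPM in the combination libraries, 580.5, 604 and 615 with ipatasertib, 326, 345 and 329 with tazemetostat and 409, 411 and 422 with DMSO. Libraries with ipatasertib were the highest and tazemetostat libraries the lowest, with DMSO between them and without overlap. EIF4B rose by 0.46 (SE 0.05) in the combination and 0.53 (SE 0.05) with ipatasertib, and fell with tazemetostat, at -0.31 (SE 0.05) (edgeR adjusted p = 1.23e-07, 4.80e-08 and 6.01e-05). EIF4H, which shares a stretch of sequence with eIF4B and also stimulates eIF4A, stood at 481, 432 and 457 CPM in the combination libraries, 494, 493 and 487 with ipatasertib, 600.4, 549 and 533 with tazemetostat and 697, 671 and 650.5 with DMSO. It fell in all 3 treated groups, at -0.56 (SE 0.06), -0.45 (SE 0.06) and -0.26 (SE 0.06) in the combination, ipatasertib and tazemetostat groups.

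Of the eIF4E-binding proteins, EIF4EBP1 stood at 37.4, 31.8 and 35.7 CPM in the combination libraries, 43.7, 42.3 and 40.3 with ipatasertib, 43.8, 35.2 and 37.9 with tazemetostat and 45.1, 46.6 and 44.2 with DMSO. The combination libraries were below those of ipatasertib and of DMSO and overlapped those of tazemetostat. EIF4EBP1 fell in the combination, at -0.37 (SE 0.08) (edgeR adjusted p = 0.000352), and with tazemetostat, at -0.22 (SE 0.08) (adjusted p = 0.0284). The tazemetostat call was lost without DMSO A, DMSO B, tazemetostat B or tazemetostat C, each left out in turn, with edgeR adjusted p between 0.0515 and 0.101, and under scaling by total counts, at -0.15 and 0.136. EIF4EBP2 stood at 187, 174 and 175 CPM in the combination libraries, 180.0, 185 and 176 with ipatasertib, 167, 178 and 167 with tazemetostat and 166, 159 and 164 with DMSO. Its rises of 0.13 (SE 0.05) in the combination and 0.15 (SE 0.05) with ipatasertib had edgeR adjusted p of 0.0329 and 0.0269, and each was lost when any of several single libraries was left out. EIF4EBP3 had 7 to 11 counts in a combination library, 7 to 15 in one of ipatasertib, 6 to 9 in one of tazemetostat and 3 to 6 in one of DMSO. Its rise of 1.26 (SE 0.50) with ipatasertib (edgeR adjusted p = 0.0408) rests on those few reads, the 2 groups overlapped, and without ipatasertib B it was 0.76 with adjusted p = 0.274.

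The eIF3 complex, which holds the small subunit and the cap complex together, did not move as a block. Of 12 tested subunits, 4 rose and 2 fell in the combination, 3 rose and 7 fell with ipatasertib, and 2 rose and 1 fell with tazemetostat. The shares of all tested genes that passed were 71%, 54.1% and 46% in the combination, ipatasertib and tazemetostat groups. The subunits that rose in the combination were EIF3E, EIF3F, EIF3H and EIF3L, and those that fell were EIF3B and EIF3J. EIF3F stood at 143, 157 and 146 CPM in the combination libraries, 132, 125 and 119.5 with ipatasertib, 93.1, 87.96 and 86.5 with tazemetostat and 85.02, 83.5 and 81.9 with DMSO. The groups lay in that order from high to low without overlap, and the change was 0.83 (SE 0.06) in the combination, 0.59 (SE 0.06) with ipatasertib and 0.09 (SE 0.06) with tazemetostat, the last with edgeR adjusted p = 0.204.

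EIF3L stood at 248, 278 and 265 CPM in the combination libraries, 238, 237 and 219 with ipatasertib, 179, 179.8 and 177 with tazemetostat and 168, 169.5 and 169 with DMSO. EIF3H stood at 317, 392 and 359 CPM in the combination libraries, 323, 309.8 and 275 with ipatasertib, 257, 261 and 259 with tazemetostat and 238, 235 and 249 with DMSO. Both rose in the combination, at 0.64 (SE 0.06) and 0.56 (SE 0.07), and with ipatasertib, at 0.46 (SE 0.06) and 0.33 (SE 0.07), and every library with ipatasertib lay above every library without it. EIF3B, a core subunit of the complex, stood at 201, 203 and 199 CPM in the combination libraries, 231, 229 and 220.0 with ipatasertib, 301, 289 and 284 with tazemetostat and 333, 309.7 and 311 with DMSO. Its groups lay in that order from low to high without overlap, and it fell in the combination, at -0.66 (SE 0.05), and with ipatasertib, at -0.49 (SE 0.05) (edgeR adjusted p = 1.06e-09 and 2.47e-07). Its tazemetostat change of -0.13 (SE 0.05) did not pass, with edgeR adjusted p = 0.0537, and it passed under 13 of 19 alternatives, DESeq2 among them, with values between -0.19 and -0.06 and adjusted p between 0.00147 and 0.386 over all 19. EIF3A, the largest subunit, fell by 0.21 with ipatasertib on the log2 scale and was at -0.08 in the combination, which did not pass. EIF3C had 0 to 2 counts per library and its near-identical copy EIF3CL had 0, and the level of this pair cannot be read from these counts.

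Genes of eIF2 and of eIF2B, the factor that reloads eIF2 with GTP, fell with ipatasertib where they changed. Of 9 tested members, 6 fell and 0 rose with ipatasertib, 4 fell and 1 rose in the combination, and 1 fell and 1 rose with tazemetostat. The gene that rose was EIF2A in both cases, which is counted here by its symbol and is a separate protein. Among all tested genes 54.1% passed with ipatasertib, 71% in the combination and 46% with tazemetostat. EIF2S1 encodes the subunit of eIF2 that stress kinases phosphorylate. It stood at 145, 173 and 155 CPM in the combination libraries, 173, 173 and 165 with ipatasertib, 251, 274 and 262 with tazemetostat and 249, 243 and 251 with DMSO. It fell by 0.65 in the combination and by 0.54 with ipatasertib on the log2 scale (SE 0.06 each, edgeR adjusted p = 1.47e-08 and 5.90e-07), with no overlap between libraries with and without ipatasertib. EIF2S2 fell by 0.22 with ipatasertib, and EIF2S3 did not pass in any group against DMSO.

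The subunits of eIF2B did not all change. EIF2B3 stood at 17.2, 22.2 and 19.3 CPM in the combination libraries, 19.8, 18.1 and 17.6 with ipatasertib, 33.2, 31.4 and 31.5 with tazemetostat and 28.2, 28.6 and 29.3 with DMSO. EIF2B4 stood at 26.9, 29.2 and 29.3 CPM in the combination libraries, 32.5, 28.1 and 31.2 with ipatasertib, 37.9, 33.9 and 34.1 with tazemetostat and 42.01, 42.3 and 41.6 with DMSO. Both encode parts of the exchange factor, and both fell in the combination, at -0.55 (SE 0.08) and -0.56 (SE 0.07), and with ipatasertib, at -0.63 (SE 0.08) and -0.45 (SE 0.07). With tazemetostat EIF2B4 fell, at -0.25 (SE 0.07), and EIF2B3 did not pass, at 0.16 (SE 0.08) (edgeR adjusted p = 0.00649 and 0.107). EIF2B5, the catalytic subunit, fell by 0.47 in the combination and by 0.36 with ipatasertib on the log2 scale, and EIF2B1 did not pass against DMSO in any group. EIF2A, which despite its symbol is a separate protein that can also bring the initiator tRNA, rose in the combination, at 0.34, and with tazemetostat, at 0.22.

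Factors of scanning, start site choice and subunit joining all passed in the combination, 3 higher and 5 lower of 8 tested. Of all tested genes 71% passed there, 36.5% higher and 34.5% lower. EIF1 and EIF1B, which guard the choice of the start codon, rose there by 0.28 and 0.38 on the log2 scale, and EIF2D, which can deliver tRNA to the ribosome without GTP, rose by 0.38. EIF1AX, EIF1AD, EIF5, EIF5B and EIF6 fell there, with log2 changes between -0.50 and -0.36. EIF5 encodes the protein that triggers GTP hydrolysis by eIF2, EIF5B the one that joins the subunits and EIF6 one that keeps free large subunits apart. With ipatasertib 1 of the 8 rose and 4 fell, and with tazemetostat 1 rose, EIF1B, and 0 fell. None of the 8 reached a log2 change of 0.5 against DMSO in any group. EIF1AY did not pass the filter on low counts and is not described.

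All 3 genes of the eIF5A group fell with ipatasertib and in the combination, where 28.7% and 34.5% of all tested genes fell. eIF5A binds stalled ribosomes and carries hypusine, an amino acid made from spermidine. EIF5A stood at 711, 589.8 and 672 CPM in the combination libraries, 860.3, 881 and 869 with ipatasertib, 1192, 1038 and 1055 with tazemetostat and 1419, 1404 and 1392 with DMSO. The 4 groups lay in that order from low to high without overlap, and EIF5A fell in all 3 treated groups, at -1.10 (SE 0.07), -0.69 (SE 0.07) and -0.36 (SE 0.07) (edgeR adjusted p = 1.54e-11, 4.00e-08 and 0.000175). EIF5AL1, a near-identical copy whose reads may be those of EIF5A, stood at 68.9, 57.7 and 67.02 CPM in the combination libraries, 86.7, 83.4 and 85.4 with ipatasertib, 122, 109.5 and 108 with tazemetostat and 124, 122 and 126 with DMSO, with log2 changes of -0.94, -0.54 and -0.14, the last not past the test. EIF5AL1 is nevertheless 1 of the 57 tested members and enters every count here.

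EIF5A2, the second form of eIF5A, moved in opposite directions under the 2 inhibitors. It stood at 15.8, 22.4 and 17.3 CPM in the combination libraries, 15.7, 14.9 and 15.9 with ipatasertib, 33.03, 44.9 and 41.2 with tazemetostat and 28.2, 26.4 and 27.9 with DMSO. Tazemetostat libraries were all above DMSO, and combination and ipatasertib libraries were all below it. EIF5A2 rose with tazemetostat, at 0.53 (SE 0.11), and fell in the combination, at -0.58 (SE 0.11), and with ipatasertib, at -0.83 (SE 0.12) (edgeR adjusted p = 0.000493, 0.000142 and 5.38e-06).

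The 4 Argonaute genes, present under their older symbols, also parted. EIF2C2, now AGO2, the one that cuts its target RNA, stood at 30.2, 26.97 and 26.3 CPM in the combination libraries, 32.96, 27.4 and 30.2 with ipatasertib, 46.5, 48.2 and 42.8 with tazemetostat and 56.05, 54.9 and 55.03 with DMSO. EIF2C4, now AGO4, stood at 52.1, 48.7 and 51.7 CPM in the combination libraries, 42.7, 45.4 and 46.7 with ipatasertib, 24.6, 28.03 and 28.1 with tazemetostat and 24.4, 21.2 and 23.02 with DMSO. EIF2C2 fell in the combination, at -0.99 (SE 0.08), and EIF2C4 rose there, at 1.15 (SE 0.07) (edgeR adjusted p = 5.46e-10 and 4.24e-11), and both had the same direction with each inhibitor alone. The rise of EIF2C4 with tazemetostat, 0.23 (SE 0.07) with edgeR adjusted p = 0.0153, was lost without DMSO B, tazemetostat B or tazemetostat C, at 0.15 to 0.17. EIF2C1 and EIF2C3 had log2 changes between -0.34 and -0.02 in the 3 treated groups.

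The effect of each inhibitor was then compared in the presence of the other. In the combination against tazemetostat, which is the effect of ipatasertib on cells that already had tazemetostat, 43 members passed, 15 higher and 28 lower, where 60.6% of all tested genes passed, 29.8% higher and 30.8% lower. Scaled by total counts, the split was 19 higher and 23 lower. In the combination against ipatasertib, which is the effect of tazemetostat on cells that also had ipatasertib, 20 members passed, 13 higher and 7 lower, where 39.1% of all tested genes passed, 21.8% higher and 17.3% lower. That count was 11 without ipatasertib C, 6 higher and 5 lower, and at most 24 with another library left out. Its higher calls were 8 without ipatasertib B or with no filter on low counts, and its lower calls were 11 without both tazemetostat A and combination B.

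The changes with ipatasertib were similar in both settings. Its log2 changes without and with tazemetostat, which share no library, had a Pearson r of 0.953 over the 57 members and the same sign in 49, as a description of these genes. The changes of tazemetostat without and with ipatasertib had r = 0.921 over the same genes, and 0.595 without EIF4E3 and EEF1A2, and the same sign in 40. EIF4E3 rose in the combination by 1.65 (SE 0.08) against ipatasertib and by 1.51 (SE 0.08) against tazemetostat, and EEF1A2 rose by 1.94 (SE 0.07) against ipatasertib and by 0.29 (SE 0.07) against tazemetostat. EIF5A fell in both comparisons, at -0.40 (SE 0.07) and -0.74 (SE 0.07), and so did EIF4G1, at -0.19 (SE 0.06) and -0.69 (SE 0.06). EIF5A2 fell against tazemetostat, at -1.11 (SE 0.11), and did not pass against ipatasertib, at 0.25 (SE 0.12). EEF1A1 passed against ipatasertib, at 0.20 (SE 0.06) with edgeR adjusted p = 0.0144, and no longer did without ipatasertib B, ipatasertib C or combination B, at 0.12 to 0.17.

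**Figure D3:**
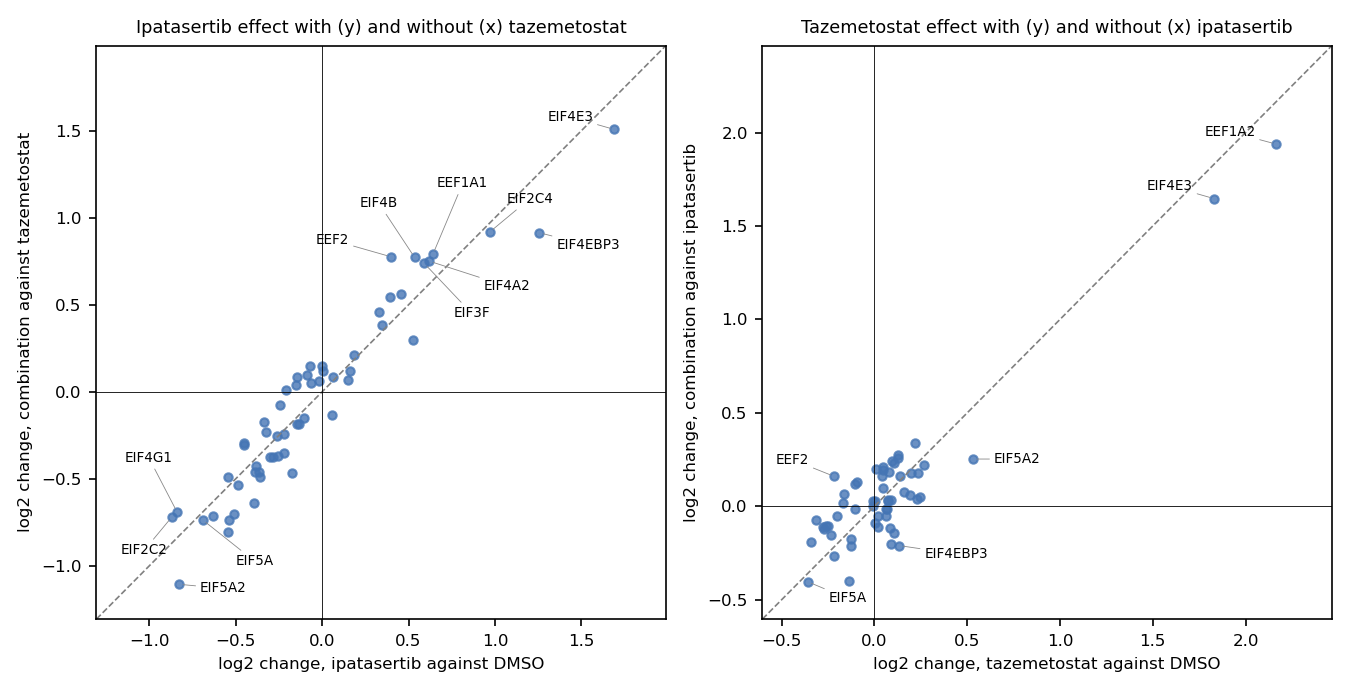
Left, log2 change with ipatasertib alone against DMSO (x axis) and in the combination against tazemetostat (y axis) for the 57 tested members. Right, log2 change with tazemetostat alone against DMSO (x axis) and in the combination against ipatasertib (y axis); the dashed line marks equal changes, EIF4E3 and EEF1A2 lie far from the rest at the upper right, and EEF2 lies above the line in both panels.

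An interaction was tested for every gene: the log2 change in the combination, less both single log2 changes added together. Of the 57 members 1 passed, on the higher side, where 1.87% of all tested genes passed as higher, 1.75% as lower and 3.62% in all, and 12 members had an unadjusted p under 0.05. This was EEF2, with 0.38 (SE 0.09) and edgeR adjusted p = 0.0223. Tazemetostat alone lowered EEF2 against DMSO, at -0.22, whereas the combination was at 0.16 against ipatasertib, which did not pass. The call was lost when any of 7 libraries was left out, namely DMSO A or B, ipatasertib A or C, tazemetostat B or C or combination C, with values of 0.35 to 0.40 and edgeR adjusted p between 0.0570 and 0.0787. Without combination B, 11 members passed the interaction, without tazemetostat A 4 did, and without both 19 did, 12 higher and 7 lower. The count thus depends on the libraries that stood apart. The share of all tested genes that passed in these settings is not given, so 19 of 57 is not a result about the members. The interaction of EIF4E3 was -0.18 (SE 0.13) and that of EEF1A2 -0.23 (SE 0.10), neither past the test (adjusted p = 0.478 and 0.233), which does not show that the effects are additive.

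The first bases of the transcript, read from the RefSeq table, were set beside these changes. The class was formed after the values had been seen, so it is given as a description with no test. Of the 57 tested members, 47 matched a gene in the table, and 12 of these, 25.5%, had a start with a C and at least 4 further pyrimidines. Of all 11228 tested genes found there, 7.24% had one, and among 61 ribosomal protein genes 68.9%. The 12 members were EEF1A1, EEF1B2, EEF2, EIF2A, EIF2D, EIF2S3, EIF3D, EIF3F, EIF3K, EIF3M, EIF4A2 and EIF4B.

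In the combination, 7 of the 12 rose and 0 fell, with a median log2 change of 0.36. Of the 35 members with another start 6 rose and 24 fell, with a median of -0.36. Over all tested genes in the table, members and ribosomal protein genes included, 42.8% rose and 31.2% fell with such a start. With another start 35.8% rose and 36.1% fell. With ipatasertib alone, 6 of the 12 rose and 2 fell (median 0.20). Both falls, of EIF3M and EIF3D, were lost without DMSO A, DMSO C, ipatasertib C or combination C and under scaling by total counts. Of the 35 with another start, 5 rose and 24 fell (median -0.33). With tazemetostat alone the medians were 0.04 and 0.05, and both were just under 0 without DMSO B or tazemetostat B. Ribosomal protein genes with such a start, 42 in number, had a median of 0.37 in the combination, and those with another start, 19 in number, 0.28. The other tested genes had medians of 0.06 in the combination with such a start and 0.00 without it, and over all tested genes in the table, members and ribosomal protein genes included, they were 0.10 and 0.00. Under scaling by total counts the medians of the members in the combination were 0.49 with such a start and -0.22 with another.

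**Figure D4:**
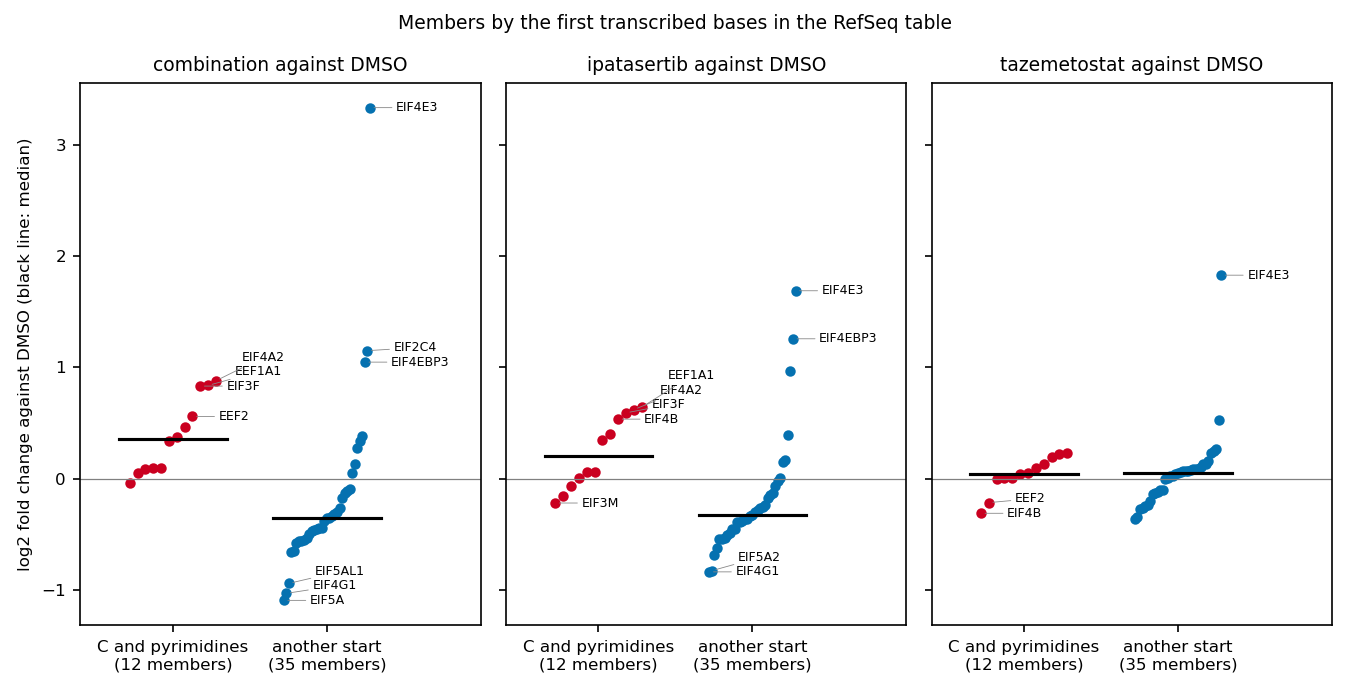
Log2 fold change against DMSO of the 47 members found in the RefSeq table (y axis), split into 12 with a C and at least 4 further pyrimidines at the start and 35 with another start, in the combination, ipatasertib and tazemetostat groups. Points are members in order of their change and black lines are medians, at 0.36 and -0.36 in the combination, 0.20 and -0.33 with ipatasertib and 0.04 and 0.05 with tazemetostat.

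The match with the start was not complete. EEF1G, EIF1, EIF1B, EIF4E3, EIF4EBP2 and EIF2C4 rose in the combination and had another start in the table. The window of EEF1G has an A at the first base, with a C and pyrimidines right after it. Whether the starts in the table are those used in SUM149PT cells was not tested, so the class can be wrong for a gene. EIF3D, EIF3K, EIF3M, EIF2S3 and EEF1B2 had the start and did not pass there, and EIF3M and EIF3D fell with ipatasertib, at -0.22 and -0.15, calls that several single libraries decided. EIF4G1 has 3 starts in the table and EIF5A has 6, none with the motif. The 10 members not in the table were EIF2C2, EIF4EBP1, EIF2S2, EIF3G, EIF3A, EEF1D, EIF3E, EIF3H, EIF3L and EEF1A2. The letters CACGTG, the core site of MYC and related factors, read alike on both strands, were found between 250 bases before and 50 after the start in 11 of 47 members, 23.4%, and in 12.2% of tested genes in the table. In the combination 3 of these 11 members rose and 6 fell, and of the 36 without the letters 10 rose and 18 fell, which are like shares. A match of letters is no evidence of binding.

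Genes around the translation factors were taken from 5 lists. Over all tested genes 36.5% rose and 34.5% fell in the combination, 25.4% and 28.7% with ipatasertib, and 25.1% and 20.9% with tazemetostat. Of 10 tested genes of termination and ribosome recycling, 8 fell and 0 rose in the combination, 7 fell and 0 rose with ipatasertib, and 1 fell and 0 rose with tazemetostat. In the combination the log2 change was -1.03 (SE 0.06) for GSPT1, a release factor, -0.98 (SE 0.08) for ABCE1, which splits the ribosome after termination, and -0.87 (SE 0.09) for ZNF598, which marks collided ribosomes. Of 11 tested enzymes that modify eIF5A and eEF2 or supply spermidine, 6 fell and 2 rose in the combination, and 6 fell and 0 rose with ipatasertib. In the combination the log2 change was -1.22 (SE 0.07) for SRM, spermidine synthase, -0.95 (SE 0.07) for DPH2, of the diphthamide pathway of eEF2, and -0.65 (SE 0.06) for SMS, spermine synthase.

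Regulators of mTORC1 and the cap moved both ways, with 8 higher and 11 lower of 26 in the combination. In that comparison 71% of all tested genes passed, 36.5% higher and 34.5% lower. The counts that follow are for the same comparison. TPT1, whose own mRNA is a known TOP mRNA, rose by 1.55 (SE 0.08), PAIP2B, which binds the poly(A)-binding protein, by 1.42 (SE 0.09), and DEPTOR, a part of mTOR complexes that restrains them, by 1.29 (SE 0.31). Of 18 genes of the eIF2 and eEF2 kinases and the integrated stress response, 9 rose and 6 fell. The log2 change was -0.82 (SE 0.07) for GCN1L1, the partner of the kinase GCN2, 0.73 (SE 0.08) for PPP1R15A, which directs a phosphatase to eIF2, and -0.71 (SE 0.06) for PPP1R15B, its constitutive relative. Of 10 mitochondrial factors 2 rose and 6 fell, with MTIF3 at 0.97 (SE 0.09), GFM1 at -0.84 (SE 0.07) and TUFM at -0.65 (SE 0.06).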

How the data were processed

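Polyadenylated RNA of 12 SUM149PT libraries in 4 groups was sequenced, from Kapa Hyper Prep libraries per the labels' protocols. The authors deposited raw read counts per gene and library. STAR, SAMtools, HTSeq and DESeq2 and the build hg19 are named in the submitters' processing notes. For the tools' versions, the annotation and the strand setting nothing is given in the sources used here, so overlapping or antisense genes cannot be told apart. A second table deposited by the authors holds normalised signal, equal to the counts divided by 1 size factor per library within a relative tolerance of 1e-06 for 23202 matched genes, which was used as a check only. The 5 summary lines of the count files, 29.8% to 38.6% of reads, were left out.

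Counts were analysed in R 4.3.3 with edgeR 4.0.16: filterByExpr, TMM scaling, and 1 quasi-likelihood fit of all 12 libraries with 1 coefficient per group. Each treated group was compared with DMSO and the combination with each inhibitor, which with the interaction makes 6 comparisons. P-values were adjusted by Benjamini-Hochberg over 14874 genes with a threshold of 0.05. Standard errors were computed from the F statistic of each log2 change. The fit gave 0.0645 as common biological coefficient of variation. The steps were tested on simulated data. CPM values are TMM-scaled.

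The genes and lists were chosen with earlier results of these data known. Values per library are given for the 24 members with the largest changes among those past the threshold with a log2 change of at least 0.5 against DMSO, and for EIF4EBP1 and EIF4EBP2. From each other list at most 3 genes are named, those with the largest change among the called in the combination. Start sequences come from the RefSeq promoter table on GRCh38.p14, 250 bases before to 50 after each start. Alternatives were other scalings, DESeq2 1.42.0, no filter, a replicate block, only the groups compared, libraries left out and, added after seeing the data, the Argonaute genes left out. The choice of tazemetostat A and combination B to leave out together also rests on these same data.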

Additional observations from a re-analysis of the deposited data

Results flagged for a closer look

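EEF2, the translocase of elongation, departed from additive log2 effects by 0.3768, the only one of the 57 tested translation factor genes past the threshold of the interaction test (edgeR adjusted p = 0.0223). Its level was higher by 0.40 on the log2 scale with ipatasertib against DMSO and lower with tazemetostat, at -0.22, and the combination stood at 0.56 against DMSO. Over the alternative settings the departure lay between 0.33 and 0.52, positive in every one that was run. It was 0.52 with tazemetostat A and combination B left out, and the call was lost for 7 of the 12 libraries when each was left out alone. With DESeq2 the value was 0.37 and the adjusted p 0.00452.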

How the results depend on the processing

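Single gene values were followed for the 26 members given by library, 24 of which had been picked for large changes past the test. They do not cover the other members. Of the 2934 such values over all alternatives, 28 had another sign than the value reported, none of them past the test as reported. Of all 2934 values 2826 stayed on the same side of the threshold, 58 passed only under the alternative and 50 passed only in the fit reported. The members' median log2 change was -0.11 in the combination and turned to 0.02 under scaling by total counts; with tazemetostat it was 0.05, and -0.007 without DMSO B and -0.003 without tazemetostat B. The total counts of members called against DMSO, and in the combination against tazemetostat, stayed within 1.5 times of those reported. For the interaction, reported as 1 member, DESeq2 called 4, the fit with no filter on low counts called 2, and leaving out both tazemetostat A and combination B gave 19; the cause was not tested. With 1 library left out, the interaction count ranged from 0 to 11, the combination against ipatasertib from 11 to 24, the combination against DMSO from 41 to 44, the combination against tazemetostat from 38 to 45, ipatasertib against DMSO from 37 to 46 and tazemetostat against DMSO from 14 to 26. The labels do not say whether the letters A, B and C pair the libraries. The deviations of libraries with the same letter correlated between -0.18 and 0.51, 5 of 18 pairs above 0.1. Those with different letters correlated between -0.57 and 0.36, 8 of 36 pairs above 0.1. The highest value was that of tazemetostat A with combination A. Of 12 libraries 5 correlated best with their own letter, which does not settle whether they are paired. With the letter as a replicate block 43 members were called in the combination against DMSO, 46 with ipatasertib, 23 with tazemetostat, 21 in the combination against ipatasertib, 43 against tazemetostat and 1 for the interaction. Shares of all tested genes are not given beside the member counts of the alternatives, which therefore describe the settings and not the members. With 3 libraries a group, genes of few reads such as EIF4EBP3 are the least certain.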
